A study of Mus musculus with 14 samples.

Results

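The Cyp4 genes encode a family of cytochrome P450 enzymes, and 10 of them were chosen by name for this description from the 54532 genes in the deposited count table. They were Cyp4a10, Cyp4a14, Cyp4a31, Cyp4a32, Cyp4b1, Cyp4f13, Cyp4f14, Cyp4f16, Cyp4f40 and Cyp4v3. RNA was sequenced from the scraped ileum mucosa of 14 male mice, 7 WT and 7 IKO, with 1 library per mouse. WT mice were homozygous for a floxed NCoR1 allele (NCoR1 flox/flox). IKO mice carried the same floxed alleles together with Cre recombinase under the villin promoter, which is active in intestinal epithelial cells (IECs). All 14 mice were fed a high-fat diet (HFD, 60% of kcal from fat) for 15 weeks. The general feeding protocol began at 7 to 8 weeks of age, but the sources used here differ on the age at the start, which is therefore uncertain for these mice. NCoR1 is a corepressor of nuclear receptors, PPARα among them, and the comparison asks how its loss in IECs changed RNA levels in the ileum. Scraped mucosa also holds immune, stromal and muscle cells in which the villin promoter is not active, and in such bulk samples fewer cells of a type and less RNA per cell cannot be told apart.

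Cyp4 enzymes insert an oxygen atom mainly at the methyl end of a fatty acid (FA), which gives an ω-hydroxy FA. Electrons reach their heme iron from NADPH through cytochrome P450 oxidoreductase, with cytochrome b5 as a helper. Alcohol and aldehyde dehydrogenases then turn the hydroxy FA into a dicarboxylic acid, which peroxisomes shorten. Cyp4a enzymes act mainly on medium- and long-chain FAs and are textbook targets of PPARα in liver and kidney. Cyp4f enzymes act on long-chain FAs and on eicosanoids such as leukotriene B4, Cyp4v3 is the mouse counterpart of the human FA hydroxylase CYP4V2, and Cyp4b1 acts on shorter chains and on some foreign compounds.

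The heme of a P450 is held by 1 cysteine. The coding sequence around its codon is shown because it is conserved across the family and still separates most members. Each line gives 48 coding bases, 5′ to 3′, from the GRCm38 genome (mm10), with the cysteine codon at bases 31 to 33. Capitals mark bases that differ from Cyp4a10. In Cyp4a31 and Cyp4a32 all 48 bases were the same as in Cyp4a10, and their lines are left out.
Cyp4a10: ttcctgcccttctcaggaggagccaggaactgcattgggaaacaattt
Cyp4a14: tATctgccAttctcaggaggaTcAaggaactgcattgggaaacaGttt
Cyp4b1: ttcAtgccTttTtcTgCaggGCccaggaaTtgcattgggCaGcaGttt
Cyp4f13: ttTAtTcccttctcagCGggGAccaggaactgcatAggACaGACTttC
Cyp4f14: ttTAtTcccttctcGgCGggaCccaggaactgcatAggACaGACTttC
Cyp4f16: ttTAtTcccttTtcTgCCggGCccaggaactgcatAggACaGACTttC
Cyp4f40: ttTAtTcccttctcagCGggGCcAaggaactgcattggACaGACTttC
Cyp4v3: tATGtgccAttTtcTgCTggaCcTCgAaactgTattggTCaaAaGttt

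Each of these stretches crosses a splice junction, so that it is continuous only in the RNA. In Cyp4a10 it joins exons 11 and 12 between chr4:115529493-115532552 on the plus strand. In Cyp4a14 it lies between chr4:115487290-115489814 and in Cyp4b1 between chr4:115625207-115625671, both on the minus strand and in exons 11 and 12. The Cyp4f stretches join exons 12 and 13, between chr17:32924933-32925349 (minus strand) in Cyp4f13, chr17:32905657-32906074 (minus strand) in Cyp4f14, chr17:32550789-32551077 (plus strand) in Cyp4f16 and chr17:32675961-32676324 (plus strand) in Cyp4f40. In Cyp4v3 the stretch joins exons 10 and 11 between chr8:45307098-45308416 on the minus strand. The number of bases that differ from Cyp4a10 was 6 in Cyp4a14, 11 in Cyp4b1, 15 in Cyp4f13, Cyp4f14 and Cyp4f40, and 17 in Cyp4f16 and Cyp4v3. Over the whole coding sequence, identity to Cyp4a10 was 97.2% for Cyp4a32, 96.6% for Cyp4a31, 75.2% for Cyp4a14, 58.7% for Cyp4b1 and 51.1% for Cyp4v3. The 4 Cyp4f members were between 75.5% and 82.4% identical to each other.

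Of the 10 members, 7 had enough counts to be tested, and 1 of these, Cyp4a10, was called higher in IKO mice. A call means an adjusted p under 0.05 in edgeR's quasi-likelihood test, adjusted by Benjamini-Hochberg over 13846 genes. No member was called lower. With 0 counts in WT 3 and 4 in WT 7, Cyp4a10 passed the filter on low counts only through the IKO mice. Among all genes tested, 8.67% were called, 4.38% higher and 4.28% lower. At an unadjusted p under 0.05, 3 of the 7 passed (Cyp4a10, Cyp4b1 and Cyp4f16), all with higher levels in IKO mice, against 30.4% of all genes. The median log2 fold change of the 7 was 0.44, with 4 above 0 and 3 below, beside -0.09 for all genes tested. Differences between members were not tested.

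**Figure D1:**
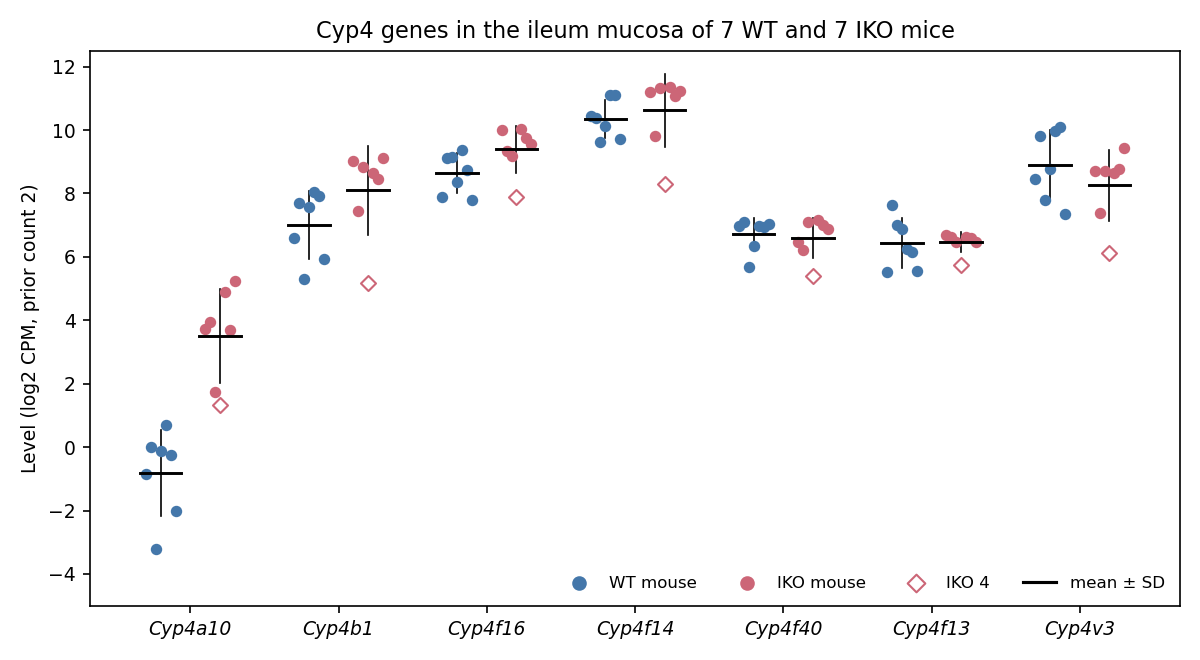
Level of each of the 7 tested Cyp4 genes in every mouse, as log2 CPM after TMM scaling with a prior count of 2 added, which also places the WT mouse with 0 Cyp4a10 counts. Blue points are WT mice, red points IKO mice, the open diamond IKO 4, and black lines the mean ± SD of 7 mice. The genotypes are separate only for Cyp4a10, and IKO 4 is the lowest IKO mouse for 7 of 7 genes.

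Levels are given as CPM, counts scaled to a common library size with TMM factors, and the libraries held 14749669 to 21557468 counts. Ncor1, the targeted gene, had 135 ± 31.3 CPM (SD, n = 7) in WT and 50.6 ± 11 CPM (SD, n = 7) in IKO mice, without overlap. Its counts cover the whole gene and not the deleted part alone. Among the enterocyte markers, 8 of 8 were tested, 1 was called higher (Fabp1) and none was near 0, while the smooth muscle markers summed to 10900 CPM in WT 4 and to 4.53 to 796 CPM in the other mice. The share of mitochondrially encoded counts was 3.49% to 10.3% in 12 mice, but 23.9% for WT 3 and 50.3% for IKO 4. Without IKO 4, WT 3 and WT 4 together, a choice made after seeing the data, the number of members called was again 1, Cyp4a10.

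Cyp4a10, an inducible FA ω-hydroxylase, lies at chr4:115518264-115533649 on the plus strand, in a cluster with Cyp4a14, Cyp4a31, Cyp4a32 and Cyp4b1. In WT mice its level was 0.449, 0.902, 0, 0.807, 1.52, 0.728 and 0.142 CPM in mice 1 to 7. In IKO mice it was 13.1, 15.2, 3.21, 2.4, 29.4, 12.7 and 38.1 CPM. Every IKO mouse was above every WT mouse, a separation in the higher direction that 1.83% of all genes tested had. IKO 3 and IKO 4 were the lowest of the IKO mice and IKO 7 was 15.8 times as high as IKO 4. The mean was 0.649 ± 0.511 CPM (SD, n = 7) in WT and 16.3 ± 13.1 CPM (SD, n = 7) in IKO mice. The log2 fold change was 4.64 (standard error 0.73, 95% interval 3.09 to 6.19), or 25-fold (edgeR adjusted p = 0.00268). An exact two-sided permutation test gave p = 0.000583, the smallest that 7 against 7 mice allow. These values rest on few WT reads, 90 counts over the 7 WT mice against 1985 over the 7 IKO mice, and 1 WT mouse had none, so the interval of the fold, 8.53 to 73.3, is wide. The call held in every alternative that tested the gene, with an adjusted p of 0.0136 or less. On the log2(FPKM + 1) scale the log2 fold change was smallest, at 2.4, where the pseudocount lowers the difference of a gene with so few WT reads.

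The other Cyp4a genes were near or at 0. Cyp4a14 (chr4:115486200-115496142, minus strand), which encodes an ω-hydroxylase 75.2% identical in coding sequence to Cyp4a10, had 0 counts in all 14 libraries. A count of 0 allows up to 3 counts, which is 0.106 to 0.328 CPM depending on the library, for counting error alone. Cyp4a31 (chr4:115563649-115579015, plus strand) had 3 counts in all WT and 11 in all IKO mice, and 0 in 5 WT and 4 IKO mice. Cyp4a32 (chr4:115600969-115621602, plus strand) had 47 and 60 counts, or 0.348 ± 0.417 CPM (SD, n = 7) in WT and 0.491 ± 0.369 CPM (SD, n = 7) in IKO mice. None of the 3 passed the filter on low counts. In a fit with no filter, the log2 fold change was 1.84 (standard error 1.12, edgeR adjusted p = 0.335) for Cyp4a31 and 0.54 (standard error 0.89, edgeR adjusted p = 0.717) for Cyp4a32. Cyp4a10 thus held 96.5% of the counts of the 4 Cyp4a genes in IKO mice and 64.3% in WT mice.

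Cyp4a10, Cyp4a31 and Cyp4a32 are near copies, so a read can match more than 1 of them. Of the 1960 stretches of 150 bases (1 read length) in the Cyp4a10 transcript, 85 (4.34%) also occur in Cyp4a31 or Cyp4a32, and the longest coding run it shares without a difference was 186 bases, with Cyp4a31. The share was 4.19% for Cyp4a31 and 7.97% for Cyp4a32. The following 60 coding bases of exon 2 are shown because they hold the most differences between the 3 genes of any such stretch. Capitals mark the 9 positions at which they are not all the same, out of 77 such positions in 1527 coding bases.
Cyp4a10: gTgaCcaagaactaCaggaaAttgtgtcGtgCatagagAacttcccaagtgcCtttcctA
Cyp4a31: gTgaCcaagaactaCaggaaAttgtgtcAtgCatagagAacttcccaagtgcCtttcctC
Cyp4a32: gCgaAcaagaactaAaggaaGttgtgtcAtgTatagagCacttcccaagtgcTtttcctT

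These stretches lie at chr4:115519640-115519699 in Cyp4a10, chr4:115565020-115565079 in Cyp4a31 and chr4:115602270-115602329 in Cyp4a32 (GRCm38, plus strand), at coding positions 200 to 259. How reads with several matches were counted is not given in the sources used here. When the 4 Cyp4a genes were summed to 1 feature, which no splitting between them can change, the level was 1.02 ± 0.919 CPM (SD, n = 7) in WT and 16.9 ± 13.5 CPM (SD, n = 7) in IKO mice. Any reads left out because they match several genes would be missing from the sum as well. The log2 fold change of the sum was 4.05 (standard error 0.75, edgeR adjusted p = 0.00663). For the sum the genotypes overlapped, since the highest WT mouse had 2.72 CPM and the lowest IKO mouse 2.4 CPM.

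Cyp4a genes are also abundant in liver, and defining hepatocyte genes were therefore read in the same libraries. Alb reached at most 0.095 CPM in WT and 0.0589 CPM in IKO mice. Fga reached at most 0.142 CPM in WT mice and was at 0 in all IKO mice. Apoh was at 0.995 ± 0.392 CPM in WT and 0.863 ± 0.479 CPM in IKO mice (SD, n = 7 each). Ttr was at 1.95 ± 0.84 CPM in WT and 2.36 ± 0.831 CPM in IKO mice (SD, n = 7 each). Both means of Apoh and Ttr were above the WT mean of Cyp4a10, 0.649 CPM, and neither gene was called. Of the 5 genes on the hepatocyte list, 3 were tested and 1 was called, Cyp3a11, a drug-metabolizing P450 that the small intestine also makes, at 25.7 ± 18.1 CPM (SD, n = 7) in WT and 628 ± 518 CPM (SD, n = 7) in IKO mice. Cyp3a11 carried the summed level of the list, which ran from 11.8 to 63.5 CPM in WT and from 40.4 to 1480 CPM in IKO mice.

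Cyp4b1 (chr4:115624725-115647723, minus strand), at the end of the same cluster, had a level of 96.9, 206, 39.3, 190, 265, 242 and 60.7 CPM in WT mice 1 to 7. In IKO mice 1 to 7 it was 520, 176, 458, 36.1, 395, 347 and 553 CPM. In 5 IKO mice the level was above all WT mice, while IKO 2 and IKO 4 were below the WT median of 190 CPM, so that the genotypes overlapped. The log2 fold change was 1.18 (standard error 0.51, 95% interval 0.09 to 2.26), with an unadjusted p of 0.0356 and an adjusted p of 0.138 in edgeR. The exact two-sided permutation test gave p = 0.126. The difference thus did not pass the threshold, and with limma-voom and sample quality weights, which give less weight to aberrant libraries, it did (log2 fold change 1.35, adjusted p = 0.0464; the adjusted p ran from 0.0464 to 0.429 over the alternatives).

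Among the Cyp4f genes, Cyp4f14 (chr17:32905071-32917342, minus strand), an enzyme of leukotriene B4 breakdown, was the most abundant. Its level ran from 782 to 2180 CPM in WT mice (median 1340) and from 313 to 2640 CPM in IKO mice (median 2370). In 5 IKO mice it was between 2140 and 2640 CPM, and in IKO 2 and IKO 4 it was 901 and 313 CPM. The log2 fold change was 0.44 (standard error 0.4, 95% interval -0.41 to 1.29, edgeR adjusted p = 0.477). Cyp4f16 (chr17:32536558-32551798, plus strand), which belongs to the same subfamily, ran from 222 to 664 CPM in WT mice (median 426) and from 235 to 1050 CPM in IKO mice (median 753). In 6 of 7 IKO mice it was above the WT median and in 4 above all WT mice, with IKO 4 as the exception at 235 CPM. The log2 fold change was 0.78 (standard error 0.33, 95% interval 0.09 to 1.47), with an unadjusted p of 0.0299 and an adjusted p of 0.127 in edgeR. The exact two-sided permutation test gave p = 0.0647, and limma-voom with sample quality weights gave a log2 fold change of 0.97 (adjusted p = 0.0329, with 0.0329 to 0.299 over the alternatives).

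Cyp4f13 and Cyp4f40 had nearly the same mean in both genotypes. Cyp4f13 (chr17:32924688-32947402, minus strand), the neighbour of Cyp4f14, was at 98.2 ± 55.4 CPM (SD, n = 7) in WT and 90 ± 16.9 CPM (SD, n = 7) in IKO mice. Its log2 fold change was -0.12 (standard error 0.3, edgeR adjusted p = 0.804), and its sign turned in 7 of 25 alternatives. WT mice ran from 45.7 to 201 CPM and 6 of 7 IKO mice from 88.5 to 103 CPM, with IKO 4 at 53.9 CPM. The SD was 56.5% of the mean in WT and 18.7% in IKO mice, a difference in spread that was not tested. Cyp4f40 (chr17:32659410-32676687, plus strand) was at 110 ± 32 CPM (SD, n = 7) in WT and 104 ± 37 CPM (SD, n = 7) in IKO mice, with a log2 fold change of -0.08 (standard error 0.27, edgeR adjusted p = 0.869).

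Cyp4v3 (chr8:45304944-45333216, minus strand), the counterpart of a gene whose human mutations cause a retinal dystrophy with lipid crystals, had the lowest log2 fold change of the members. Its level was 346, 907, 223, 438, 1000, 1100 and 164 CPM in WT mice 1 to 7. In IKO mice 1 to 7 it was 421, 167, 417, 70, 401, 438 and 684 CPM. The highest 3 WT mice were above all IKO mice and the others lay within the IKO range, so that the genotypes overlapped widely. The log2 fold change was -0.69 (standard error 0.49, 95% interval -1.72 to 0.35, edgeR adjusted p = 0.352), with an exact two-sided permutation p of 0.296. The highest 3 WT mice, here and for Cyp4b1, were WT 2, WT 5 and WT 6. They had the lowest WT sums of 5 ileal enterocyte markers (Fabp6, Slc10a2, Fgf15, Slc51a and Slc51b). These sums were 1840, 1010 and 802 CPM, beside 4110 to 9040 CPM in the other WT mice. In IKO mice the sums ran from 1040 to 6960 CPM, and IKO 2, at 167 CPM of Cyp4v3, had 1100 CPM. The part of the place sampled along the gut in these levels was not tested. An exon of Cyp4v3 overlaps the gene Gm45753 by 313 bases on the same strand, and Gm45753 had 0 to 2 counts per mouse. How reads in the overlap were counted is not given, so these counts do not show whether reads of Cyp4v3 were left out.

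**Figure D2:**
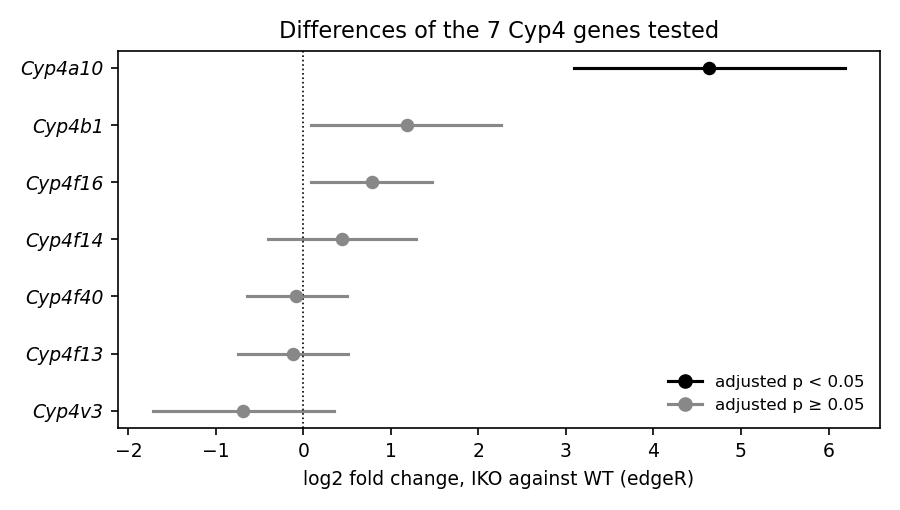
Log2 fold change between IKO and WT mice for the 7 Cyp4 genes tested, as points with 95% intervals from edgeR's quasi-likelihood fit, black where the adjusted p was under 0.05. Cyp4a10 lies at 4.64, the intervals of Cyp4b1 and Cyp4f16 start just above 0, and those of the other 4 genes cross 0.

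Between genes, levels can be compared only per length, for which the deposited FPKM (fragments per kilobase of transcript, scaled per sample) were used. In WT mice the order was Cyp4f14 (573 ± 241), Cyp4v3 (154 ± 103), Cyp4f16 (139 ± 56.6), Cyp4b1 (68.4 ± 39.8), Cyp4f40 (58.1 ± 17), Cyp4f13 (28.8 ± 16.1) and Cyp4a10 (0.302 ± 0.239 FPKM, SD, n = 7 each). Cyp4v3 and Cyp4f16, and Cyp4b1 and Cyp4f40, differed by less than their SD. In IKO mice the order was Cyp4f14 (793 ± 382), Cyp4f16 (244 ± 93.8), Cyp4b1 (158 ± 83.6), Cyp4v3 (97.7 ± 53), Cyp4f40 (56.4 ± 20.1), Cyp4f13 (27.1 ± 4.98) and Cyp4a10 (7.78 ± 6.33 FPKM, SD, n = 7 each). Neighbours from Cyp4f16 to Cyp4f40 in that order differed by less than the larger of their SDs. Cyp4f14 was thus the most abundant Cyp4 RNA in either genotype and Cyp4a10, the gene with the largest fold change, the least abundant of the 7.

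Cyp4b1 and Cyp4v3 were placed differently in the genotypes although neither was called on its own. The ratio of their counts within a mouse needs no scaling of libraries. It was 0.28, 0.228, 0.176, 0.434, 0.264, 0.22 and 0.37 in WT mice 1 to 7. In IKO mice 1 to 7 it was 1.24, 1.06, 1.1, 0.516, 0.984, 0.79 and 0.81. Every IKO mouse, IKO 4 included, was above every WT mouse, and the mean log2 ratio was higher by 1.73 in IKO mice (-1.89 ± 0.45 in WT and -0.16 ± 0.42 in IKO mice, SD, n = 7 each). This pair was singled out after its values were seen and is a description without a test. It was the 1 of 15 pairs among the 6 members not called in which the genotypes did not overlap. As background, the ratio of Cyp4b1 to each of 11184 other genes with enough counts was without overlap for 0.331%, and that of Cyp4v3 for 0.832%.

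**Figure D3:**
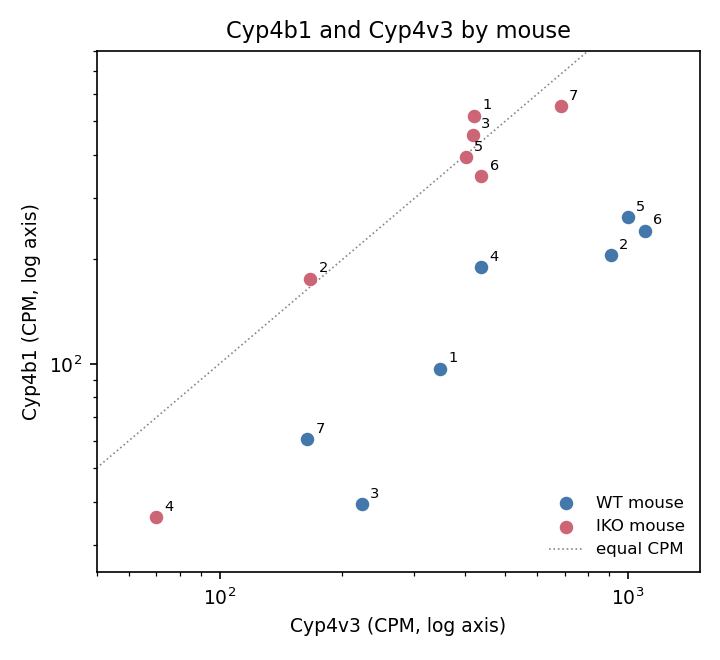
CPM of Cyp4b1 against CPM of Cyp4v3 in each mouse, both on log axes, with WT mice in blue, IKO mice in red and the mouse number beside each point. The dotted line marks equal CPM. WT mice lie well below it, with count ratios of 0.176 to 0.434, and IKO mice on or nearer to it, with ratios of 0.516 to 1.24.

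Within a genotype, several members were high or low in the same mice. After each genotype's mean was subtracted, the Spearman correlation of log2 CPM over the 14 mice was 0.89 for Cyp4b1 and Cyp4v3, 0.76 for Cyp4b1 and Cyp4f14, 0.76 for Cyp4f14 and Cyp4v3, and 0.71 for Cyp4a10 and Cyp4b1. For Cyp4f13 it ran from -0.08 with Cyp4f14 to 0.55 with Cyp4f16. These points share their libraries, with their depth and scaling, and the correlations are given as descriptions. IKO 4, the library with 50.3% mitochondrial counts, was the lowest IKO mouse for 7 of 7 members tested, while 24.7% of all genes tested had their lowest IKO value there. WT 3, WT 7 and WT 1 had the lowest 3 WT values of Cyp4a10 (0, 0.142 and 0.449 CPM), of Cyp4b1 and of Cyp4v3. The same mice had the lowest 3 summed levels of the enterocyte markers (33800, 18400 and 25900 CPM, beside 52300 to 92300 CPM in the other WT mice). The part of epithelial content in the Cyp4 levels was not tested. The summed enterocyte markers ran from 42900 to 71800 CPM in IKO mice.

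The 5 genes whose levels followed Cyp4a10 most closely by the same measure were Hsd17b6 (Spearman 0.91), Miga2 (0.91), Retsat (0.88), Tm6sf2 (0.87) and Pla2g12b (0.87), over 14 mice and 13846 genes. None of these 5 passed the threshold between genotypes (edgeR adjusted p of 0.0505 to 0.735). They were picked as the highest of 13846 genes, and whether unrelated genes would reach such values was not tested. The WT levels of Cyp4a10 rest on 0 to 29 counts per mouse, so counting error enters their ranks.

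Genes that supply the Cyp4 reaction or act after it were compared from lists of general biochemistry. Their values are to be read beside the 4.38% of all genes tested that were called higher and the 4.28% called lower. The median log2 fold change of all genes tested was -0.09. Of 5 electron donors, 1 rose and none fell, with a median log2 fold change of 0.69. The one that rose was Cyb5a, cytochrome b5, from 178 ± 67.4 to 399 ± 107 CPM (SD, n = 7 each, log2 fold change 1.17, edgeR adjusted p = 0.0116). Por, cytochrome P450 oxidoreductase, was not called, at 204 ± 99.5 CPM in WT and 496 ± 213 CPM in IKO mice (SD, n = 7 each). Its log2 fold change was 1.28 (edgeR adjusted p = 0.0609). Of the 5 electron donors, 4 had a log2 fold change above 0 and 1 below. Of 7 genes of heme synthesis, 1 rose and none fell, with a median of 0.25. Alas1, the rate-limiting enzyme of heme synthesis, rose from 95.4 ± 26.5 to 280 ± 61.9 CPM (SD, n = 7 each, log2 fold change 1.55, edgeR adjusted p = 0.000547).

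Of 8 alcohol and aldehyde dehydrogenases tested from a list of 10, 6 rose and none fell, with a median log2 fold change of 0.81. Those with the smallest p were Aldh1a1, Adh4, Adh1, Adh5 and Aldh3b1, with log2 fold changes of 1.76, 3.43, 2.15, 0.59 and 0.81 (edgeR adjusted p of 0.000439 to 0.0319). Several of them are better known for oxidizing retinoids or ethanol than ω-hydroxy FAs. Of 13 peroxisomal genes tested from a list of 14, 8 rose and none fell, with a median of 0.79. Acot4, a thioesterase of dicarboxylyl-CoA, rose from 44.3 ± 12 to 129 ± 18.9 CPM (SD, n = 7 each, log2 fold change 1.55, edgeR adjusted p = 0.000238). Ehhadh, the bifunctional enzyme of peroxisomal β-oxidation, had a log2 fold change of 1.75 (edgeR adjusted p = 0.00119). Acot8, Acaa1b and Abcd3, the last a transporter of dicarboxylic acids into peroxisomes, had log2 fold changes of 0.84, 1.38 and 1.14 (edgeR adjusted p of 0.00619, 0.0206 and 0.0251). Acot4 and Acaa1b have close paralogs with which reads may have been shared.

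**Figure D4:**
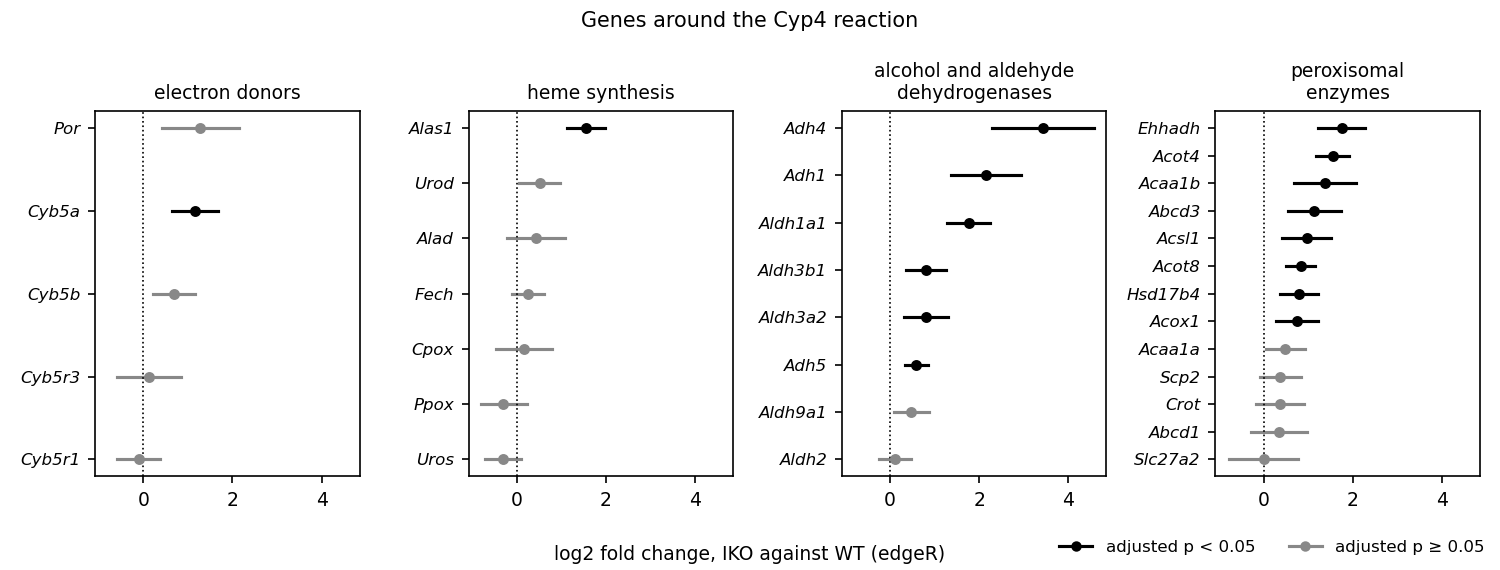
Log2 fold change between IKO and WT mice with 95% intervals from edgeR's quasi-likelihood fit, in 4 panels for electron donors, heme synthesis, alcohol and aldehyde dehydrogenases and peroxisomal enzymes, black where the adjusted p was under 0.05. The called genes, 1, 1, 6 and 8 in the 4 panels, all lie above 0.

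Of 11 genes of eicosanoid metabolism tested from a list of 14, which Cyp4f enzymes share with lipoxygenases and cyclooxygenases, none was called, and 2 had an unadjusted p under 0.05, a smaller share than the 30.4% of all genes tested. These were Pla2g4a, which releases arachidonic acid, with a log2 fold change of -1.14 (edgeR adjusted p = 0.0845), and Ptgs1, a cyclooxygenase, with -1.27 (edgeR adjusted p = 0.109). Ptgs1 was unevenly spread in WT mice, at 11.3 ± 14.6 CPM (SD, n = 7) with a highest value of 44 CPM, against 3.39 to 6.12 CPM in IKO mice. The median of the list was -0.52. Markers of immune cells, which carry many of these genes, had log2 fold changes below 0 in 5 of 5, with a median of -0.45 and 0 called. They ran from -1.82 (Cd79a) to -0.07 (Jchain), and 7826 of all 13846 genes tested were below 0. The immune markers summed to 107 to 652 CPM in WT and 105 to 440 CPM in IKO mice. Their part in the eicosanoid values was not tested. Of 7 receptors and cofactors, Ppara and Ppard rose (log2 fold change 1.55 and 0.74, edgeR adjusted p = 0.0285 and 0.0192), Ncor1 fell by 1.41 on the log2 scale (edgeR adjusted p = 0.00051), and Pparg was at 0.17 (edgeR adjusted p = 0.714).

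The table held 17 further genes named Cyp4, of which 8 had 0 counts in all mice and 2 were tested. Cyp4f17 and Cyp4f18, the latter known from neutrophils, had log2 fold changes of -0.89 and -1.11 (edgeR adjusted p = 0.185 and 0.161), and neither was called. Levels of Cyp4f18 were 5.68 ± 5.09 CPM (SD, n = 7) in WT and 2.63 ± 1.12 CPM (SD, n = 7) in IKO mice. The 5 neutrophil markers, none of which passed the filter, summed to 0.419 to 2.37 CPM in WT and 0.388 to 1.08 CPM in IKO mice, and their part in Cyp4f18 was not tested. Other genes within 250000 bases of the members were read as neighbours. Around the cluster on chromosome 4, which holds Cyp4a10, 4 neighbours were tested and 0 called, with a median log2 fold change of 0.13. Around the Cyp4f genes on chromosome 17, 14 were tested and 2 called, Akap8 (log2 fold change -0.8) and Gm17115 (1.14), with a median of -0.64, where 8.67% of all genes tested were called. Around Cyp4v3 on chromosome 8, 4 were tested and 0 called, with a median of -1.57.

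RefSeq start sites on GRCm38.p6 were available for 7 of the 10 members, Cyp4a10, Cyp4a14 and Cyp4a31 not among them. The 250 bases before each start were searched on both strands for AGGTCANAGGTCA, the direct repeat with a 1-base spacer that PPARα binds together with RXR, and the best match was counted. No member had an exact match. Cyp4f16 had the closest, AGGGCAAAGGTGA on the minus strand with 2 mismatches, within chr17:32536307-32536556, and 3.24% of 32851 promoters had a match as close or closer. Cyp4a32 and Cyp4v3 had matches with 3 mismatches, which 21.3% of promoters reach, Cyp4b1, Cyp4f14 and Cyp4f40 with 4, which 74.5% reach, and Cyp4f13 with 5, which 99.6% reach.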

How the data were processed

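Ileum mucosa RNA was sequenced by the authors as 150-bp paired-end reads. According to the methods and the submitters' processing notes, reads were aligned with HISAT2 2.0.5 to mm10 and counted per gene with featureCounts 1.5.0-p3. Strand and multi-mapping settings and the annotation release are not given in the sources used here. The deposited counts are raw whole numbers. The deposited FPKM equal counts divided by gene length and 1 factor per sample. Genotypes came from sample titles, with columns named KO read as IKO.

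Counts were filtered with filterByExpr, scaled by TMM and fitted with genotype as the only term in edgeR 4.0.16 (R 4.3.3), with Benjamini-Hochberg adjustment over all 13846 genes tested. CPM use TMM-scaled library sizes, and the figure of levels adds a prior count of 2. The fit was tested on simulated counts. Exact permutation tests of mean log2 CPM covered 3432 divisions of the mice. The libraries held 14749669 to 21557468 counts, and 3 counts equal 0.106 to 0.328 CPM. Alternatives were DESeq2 1.42.0, RLE scaling, leaving out mitochondrially encoded genes, no filter or at least 10 counts in every sample, limma 3.58.1 on log2 FPKM (pseudocounts 1 and 0.1, genes above 0.5 in at least 7 samples, or no filter), limma-voom with sample quality weights, summed Cyp4a genes, a block for the sample number, and leaving out each mouse. Sequences came from GRCm38 with a GENCODE annotation, in which 8 of the 10 members had the same start and end as in the deposited table. All 10 members were to be named, and from each further list at most 5 called genes with the smallest p, or the 2 with the smallest p where none was called. Por was named in addition. The members and lists were chosen with earlier results of these data known. Some single genes were taken off the lists and are not reported here.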

Additional observations from a re-analysis of the deposited data

Results flagged for a closer look

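Values of 7 members in each genotype, 14 groups of 7 mice, were searched for a mouse far from the others, and chance marks about 1 in 20 such groups. There were 3 such values, all in IKO 4, the library with 50.3% mitochondrially encoded counts. For Cyp4b1, IKO 4 was at 36.1 CPM and the next mouse at 176 CPM, and this gap took 0.581 of the range of the IKO mice on the log2 scale. For Cyp4f13 it was at 53.9 CPM with the next mouse at 88.5 CPM, a gap of 0.766 of the range. For Cyp4f16 it was at 235 CPM with the next at 580 CPM, a gap of 0.604 of the range. When IKO 4 was left out, Cyp4b1 had a log2 fold change of 1.38 (edgeR adjusted p = 0.0603) and Cyp4f16 of 0.94 (edgeR adjusted p = 0.0568).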

How the results depend on the processing

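The call of Cyp4a10, or of the summed Cyp4a genes in its place, held in 26 of 26 alternatives. In 2 of these, with and without Cyp4a14, the sum was tested and not Cyp4a10 itself. These 2 are the same since Cyp4a14 had 0 counts. The log2 fold change of Cyp4a10 was 2.4 (log2 FPKM with a pseudocount of 1) to 5.01 and, with each mouse left out in turn, 4.28 (without IKO 7) to 5.01 (without WT 5). It was not tested where at least 10 counts in every sample were required, so that 0 members were called higher there. With limma-voom and sample quality weights 3 were called, since Cyp4b1 (1.35) and Cyp4f16 (0.97) passed. The sign of Cyp4f13 turned with limma-voom (0.4), on log2 FPKM with a pseudocount of 1 (0.06), 0.1 (0.07) or 1 without a filter (0.06), with the sample number as a replicate block (0.04) and without IKO 4, WT 3 and WT 4 (0.12), and ran from -0.26 to 0.16 (without WT 2) with each mouse left out. That of Cyp4f40 turned without IKO 4 (range -0.2 to 0.06). Signs of the other 5 members held in every alternative. The cause of these turns was not tested. The number of all genes called was 2571 with DESeq2, 508 with no filter, 1889 with limma-voom, 614 on log2 FPKM without a filter and 433 without IKO 4, WT 3 and WT 4 (added after seeing the data), and ran from 515 (without IKO 5) to 1371 (without WT 2) with each mouse left out. Counts more than 1.5 times below 1200 were also found without WT 4 (746), WT 7 (600), IKO 1 (526), IKO 2 (728) and IKO 7 (789). With the replicate block 362 genes were called, and Cyp4a10 was at 4.53 (edgeR adjusted p = 0.0136). Whether the sample numbers pair the mice cannot be decided from these values. The deviations of same-numbered mice correlated above 0.1 in 1 of 7 pairs (-0.31 to 0.23), and 1 of 14 mice correlated best with its own number. A low correlation only fails to detect variation shared within a number. At this depth Cyp4a14, with 0 counts, and Cyp4a31, with 3 and 11 counts in the 2 genotypes, could not be compared by the main test.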
